A study of Eleocharis dulcis with 24 samples.

Results

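A set of 150 genes of *Eleocharis dulcis* was highest at late swelling in cultivated corms and at maturity in wild corms. *Eleocharis dulcis* is the Chinese water chestnut, a sedge with an edible corm. The 150 genes were taken from 35975 genes in the deposited table, in which levels are given in TPM (a gene's transcript abundance, scaled for length and to a library total that is the same for all libraries). Genes with an EdulChr ID and a mean under 2000 TPM in every group were eligible, 33319 in all, and 864 of them had their highest group mean at cultivated late swelling and at wild maturity. For each gene and origin, the margin is the peak minus the next highest stage on the log2(mean TPM + 1) scale. The 150 genes were chosen by these measured group means, as those with the largest value of the smaller of the 2 margins. All 150 also passed the filter for testing, 1 TPM or more in 3 libraries or more, which 27050 genes passed.

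RNA was sequenced from corms of cultivated and of wild plants at 4 stages: initial swelling, middle swelling, late swelling and maturity. The 24 libraries made 8 groups of 3, and the series design calls the 3 of a stage biological replicates. The labels name no variety, growing site, plant age or treatment, so that any of these cannot be told apart from the origin of the plants. In bulk tissue, fewer cells of a type and less RNA per cell cannot be told apart.

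A corm is a swollen underground stem. During swelling its cells divide and enlarge and its storage tissue takes up sugars and lays down starch, and at maturity growth stops and the corm can pass into dormancy. The files pair no ID with a gene name, so genes are given by ID, no function is assigned to them, and the tissue could not be checked against marker genes.

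Library totals lay between 999991 and 1000002 TPM, so that depth is unknown. Each SD given here is that between the 3 libraries of a group. Each SE comes from the limma fit to all 24 libraries, with a spread shared by all groups. TPM values share a fixed total, and the 10 highest genes of a library held 15.5, 16.3, 12.7 and 30.1% of it over the 4 stages of cultivated corms and 7.38, 13.6, 19.3 and 42.2% over those of wild corms (means of 3 libraries). As the total is fixed, a larger share for these genes leaves less TPM for all others. Median-of-ratios scaling (each library divided by the median ratio of its genes to their mean over libraries) was run beside the deposited values for this.

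Together the 150 genes held a share of all TPM that was largest at the stage that chose them. In cultivated corms their summed level was 4018 ± 247 TPM during initial, 10984 ± 98.98 during middle and 24482 ± 36.6 during late swelling, and 11145 ± 289 TPM at maturity (SD, n = 3 each). In wild corms the sum was 1934 ± 7.88 TPM during initial, 2262 ± 13.5 during middle and 2662 ± 41.4 during late swelling, and 9202 ± 55.6 TPM at maturity (SD, n = 3 each). The late cultivated libraries thus carried 2.45% of their TPM in these genes and the mature wild libraries 0.92%. In deposited TPM the cultivated sum was above the wild sum at every stage, with no overlap of libraries. After median-of-ratios scaling this held at initial, middle and late swelling but turned at maturity, with mean sums of 12630 in cultivated and 17035 in wild corms. With the 10 highest genes of the table removed, the maturity libraries of the origins overlapped. The scaled peak sums were closer together than the deposited ones, at 18813 in late cultivated and 17035 in mature wild corms. Since the genes were chosen for their peaks, these sums are a description and were not tested.

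**Figure D1:**
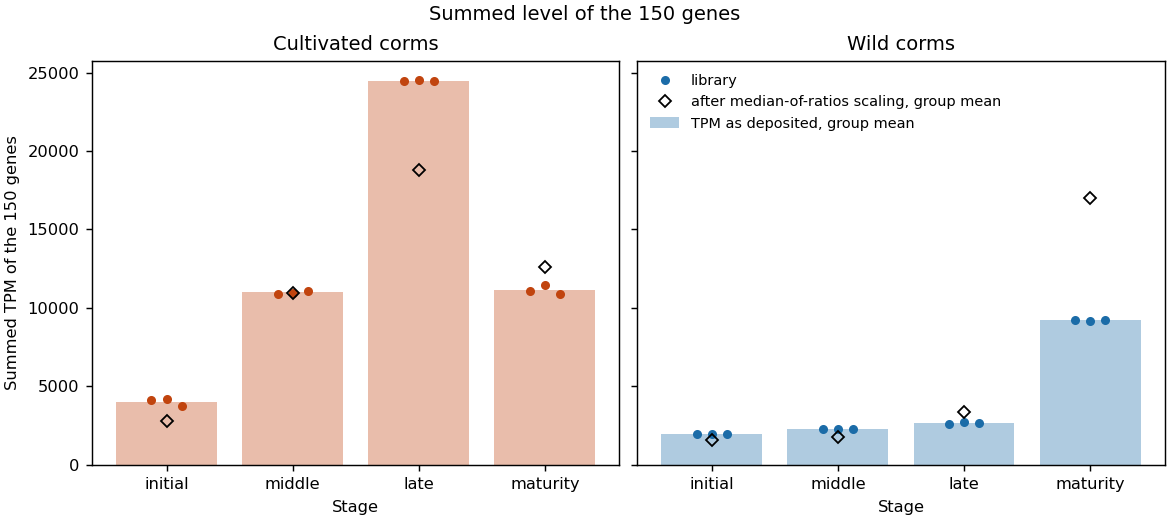
Summed TPM of the 150 genes (y axis) by stage (x axis) in cultivated and wild corms; bars are group means of the deposited TPM, points are libraries, and open diamonds are group means after median-of-ratios scaling. The sum is highest at late swelling in cultivated corms (24482 TPM) and at maturity in wild corms (9202 TPM), and the scaled peaks lie at 18813 and 17035.

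A minority of the genes carried much of the sum. At cultivated late swelling, 12 of the 150 genes made up at least 50% of it, and at wild maturity 17. The 5 genes highest at cultivated late swelling held 28.1% of the sum there and 17.6% at wild maturity, and without them the sums were 17610 TPM in late cultivated and 7580 TPM in mature wild corms. Peak means of single genes ranged from 1.36 to 1813 TPM with a median of 43.2 TPM at cultivated late swelling, and from 0.637 to 660 TPM with a median of 26.2 TPM at wild maturity. At cultivated maturity the median gene stood at 47.3% of its late level, with a range of 0 to 71.5%. The choice of genes fixes that every gene was lower at maturity and sets the upper end of this range, so nothing is read from it. After scaling the median was 69.7% and the highest 105%.

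In nearly all of these genes the peak libraries stood clear of the rest. In 145 genes every cultivated late library lay above all 9 other cultivated libraries, a pattern seen in 18.4% of all genes tested. In 148 genes every wild maturity library lay above all 9 other wild libraries, against 5.31% of all genes tested. The choice of genes used these contrasts, so nothing is read from the counts. The 5 genes with overlapping cultivated libraries were EdulChr65G00223100, EdulChr61G00213400, EdulChr5G00024170, EdulChr77G00256010 and EdulChr59G00206410, named after their values were seen. EdulChr77G00256010 had 16.1, 18.9 and 44.1 TPM at cultivated late swelling, set by the last of these libraries, and lost its cultivated peak without it. The 2 genes with overlapping wild libraries were EdulChr70G00238770 and EdulChr60G00208410.

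**Figure D2:**
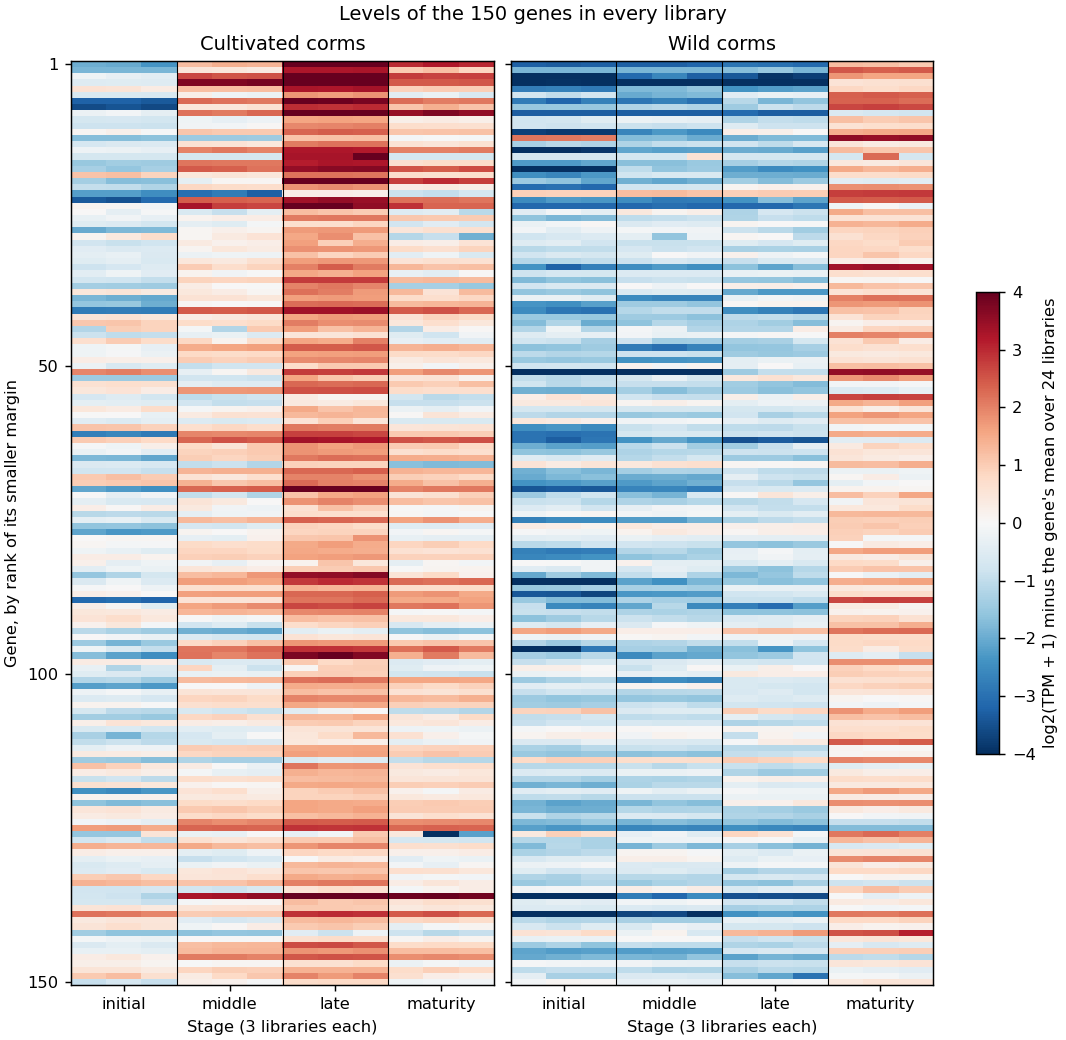
Level of each of the 150 genes (rows, ordered by the smaller margin) in each library (columns, 3 per stage), as log2(TPM + 1) minus the gene's mean over 24 libraries, with cultivated corms left and wild corms right. The late columns of the cultivated corms and the maturity columns of the wild corms are the reddest of their origin, and libraries of a group resemble each other.

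The gene with the largest smaller margin was EdulChr28G00112290. In cultivated corms it had 1.62, 1.52 and 1 TPM in initial, 23.2, 26.1 and 25.2 in middle, 676, 690.0 and 692 in late and 80.5, 93.5 and 81.6 in mature corms. Wild libraries of EdulChr28G00112290 held at most 0.36 TPM at the initial, middle and late stages and 22.9, 21.9 and 20.1 TPM at maturity. The margins were 2.99 in cultivated and 4.15 in wild corms (log2), and no mature wild library overlapped a cultivated library of the late stage or of maturity. The gene was thus near 0 in wild corms until the last stage, but present in all cultivated libraries.

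EdulChr48G00177660 was listed at 0 in all initial libraries of both origins and in all 3 wild middle libraries. Its cultivated values were 3.98, 3.81 and 3.51 TPM at middle, 32.4, 32.5 and 32.9 at late and 6.4, 7.2 and 5.46 at maturity. The wild values were 0.1, 0.23 and 0 TPM at late and 18.9, 17.5 and 18.6 at maturity. Every mature cultivated library lay below every mature wild library.

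EdulChr29G00114780 and EdulChr104G00320870 were among the highest of the set at cultivated late swelling. EdulChr29G00114780 had 36.2, 32 and 29.8 TPM in initial, 265, 237 and 241 in middle, 1248, 1235 and 1188 in late and 288, 270.1 and 279 in mature cultivated corms. Wild libraries of this gene had 0.51, 0.32 and 0.55 TPM in initial, 3.8, 5.8 and 3.34 in middle, 2.98, 1.72 and 2.09 in late and 141, 123 and 122 in mature corms. EdulChr104G00320870 stood at 11.4, 11.7 and 11.5 TPM in initial, 238, 237 and 252 in middle, 1047, 1055 and 1048 in late and 96, 97.2 and 98.4 in mature cultivated corms. Its wild libraries held at most 0.15 TPM before maturity and 25.2, 26 and 26.9 TPM at maturity. Both genes were already high at cultivated middle swelling, when EdulChr104G00320870 was near 0 in wild corms.

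Among the other 6 genes with the largest margins, cultivated and wild peaks could lie close together or far apart in deposited TPM. EdulChr8G00036840 reached 431, 415 and 443 TPM at cultivated late swelling and 359, 369.7 and 353 TPM at wild maturity, with 3.69, 4.11 and 3.63 TPM in cultivated and 18.8, 18.9 and 18.8 TPM in wild corms at the initial stage. The libraries of EdulChr19G00080610 overlapped between the origins at the initial and middle stages. It had 18.3, 19 and 18 TPM in cultivated and 17.3, 18.1 and 21.8 TPM in wild initial corms, and 27.1, 24.2 and 26.3 TPM in cultivated and 26.1, 24.9 and 23.8 TPM in wild middle corms. Its peaks were 92.7, 94.5 and 93 TPM at cultivated late swelling and 71.1, 63.2 and 67 TPM at wild maturity. EdulChr55G00198300 was lower at the cultivated peak, with 18.6, 17.5 and 19 TPM, than at the wild peak, with 29.4, 30.6 and 29.3 TPM. EdulChr81G00266040 showed the opposite, with 311, 306 and 309 TPM at cultivated late swelling and 5.55, 5.11 and 4.73 TPM at wild maturity. EdulChr5G00023760 had 171, 168 and 178 TPM at cultivated late swelling and 30.7, 28.1 and 31.1 TPM at wild maturity, and EdulChr89G00288660 had 190.4, 180.4 and 163 TPM at cultivated late swelling and 60.5, 60 and 55.5 TPM at wild maturity. The cultivated peak mean was the higher one in 9 of these 10 genes as deposited and in 6 after median-of-ratios scaling. EdulChr48G00177660, EdulChr8G00036840 and EdulChr19G00080610 turned to a higher wild peak, with scaled means of 25.1 at cultivated late swelling and 33.9 at wild maturity for EdulChr48G00177660.

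**Figure D3:**
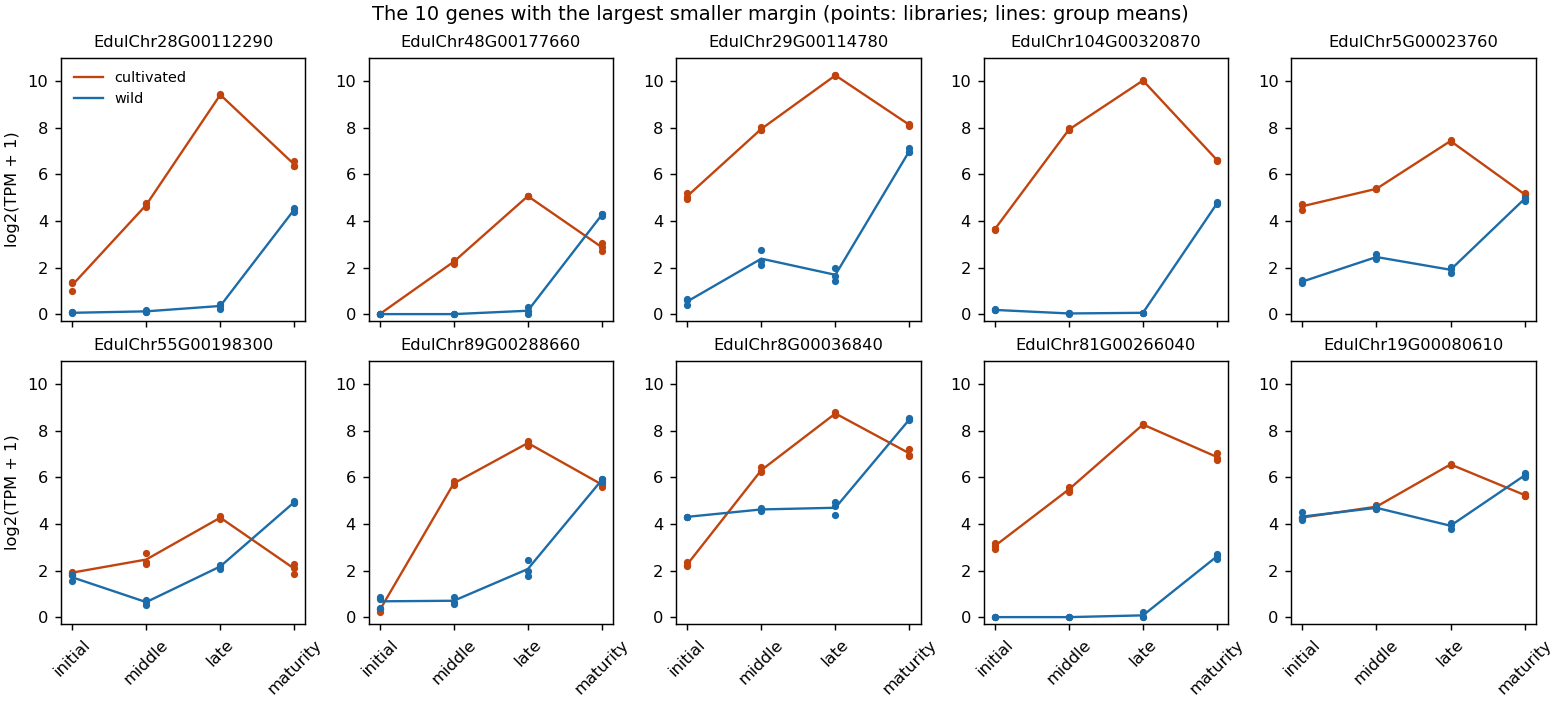
Levels of the 10 genes with the largest smaller margin, as log2(TPM + 1) on the y axis against stage on the x axis; points are libraries and lines join group means, for cultivated and wild corms. The cultivated line peaks at late swelling and the wild line at maturity in every panel, and in these deposited values the cultivated peak is the higher one in 9 of the 10 panels, EdulChr55G00198300 being the exception; after median-of-ratios scaling it was the higher one in 6.

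The highest levels of the set were those of EdulChr58G00203680 and EdulChr28G00111110. EdulChr58G00203680 had 55.8 ± 4.86, 754 ± 73.8, 1813 ± 88.4 and 855 ± 49.7 TPM from initial to maturity in cultivated corms (SD, n = 3). In wild corms it had 4.59 ± 0.289, 58 ± 12.6, 27.6 ± 3.04 and 402 ± 25.2 TPM over the same stages (SD, n = 3). EdulChr28G00111110 had 35.1 ± 2.74, 913 ± 16.3, 1556 ± 40.1 and 483 ± 9.11 TPM in cultivated corms and was the highest of the set at wild maturity, at 659.7 ± 10.1 TPM (SD, n = 3). In both genes the cultivated libraries lay above the wild ones at initial, middle and late swelling, with no overlap. At maturity EdulChr58G00203680 was higher in cultivated and EdulChr28G00111110 in wild corms. EdulChr41G00155060 and EdulChr61G00211390 completed the 5 highest at cultivated late swelling, with 1153 ± 40.1 and 1126 ± 12.2 TPM, beside EdulChr29G00114780. At wild maturity EdulChr35G00136930 came second, with 484 ± 9.42 TPM beside 485 ± 20 TPM at cultivated late swelling (SD, n = 3 each).

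A smaller group was close to 0 outside its peak. In 13 genes every wild library of the initial, middle and late stages was under 1 TPM and every wild maturity library was at least 1 TPM. They include EdulChr28G00112290, EdulChr48G00177660, EdulChr104G00320870 and EdulChr81G00266040. Another was EdulChr2G00005920, with 6.88, 8.17 and 6.44 TPM at wild maturity and at most 0.18 TPM in earlier wild libraries. In cultivated corms it had 8.01 ± 0.728, 66.2 ± 16.3, 139.6 ± 34 and 50.8 ± 12.7 TPM from initial to maturity (SD, n = 3), so it was near 0 before maturity in wild corms alone. The mirror pattern in cultivated corms, under 1 TPM at initial, middle and maturity and at least 1 TPM at late, was met by 5 genes: EdulChr60G00208410, EdulChr18G00075150, EdulChr34G00133120, EdulChr33G00132670 and EdulChr26G00107390. EdulChr18G00075150 met both, with 2.94, 2.17 and 2.53 TPM at cultivated late swelling and 2.21, 2.83 and 2.14 TPM at wild maturity. These limits and names were chosen after the values were seen. A large margin favours genes that are low outside the peak, and no share of all genes was taken, so nothing is read from the counts of 13 and 5.

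EdulChr60G00208410 was listed at 0 in the other 9 cultivated libraries and had 15, 15 and 24.9 TPM at late swelling. Its wild maturity values were 0, 6.93 and 0 TPM, and without the middle one of these libraries it had no wild maturity peak, since a wild middle library held 1.43 TPM. EdulChr33G00132670 likewise stood at 1.57, 0.3 and 0.33 TPM at wild maturity, with most of the mean from 1 library, but it kept its wild peak with any library left out. The wild side of the pattern thus rests on a single library for EdulChr60G00208410.

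At the threshold of the set, values were modest. EdulChr2G00005220, the last gene taken, had 27.1 ± 0.733 TPM at cultivated late and 17 ± 1.82 TPM at cultivated middle swelling, and 21.8 ± 0.957 TPM at wild maturity against 15.6 ± 1.09 TPM at wild initial swelling (SD, n = 3). EdulChr91G00292450, the first left out, had 23.8 ± 0.656 TPM at cultivated late swelling and 26 ± 0.737 TPM at wild maturity (SD, n = 3). Their smaller margins were 0.46 each (log2), as were those of EdulChr102G00315960 just inside and EdulChr4G00018170 just outside. Both margins were at least 1 in 31 genes. In 107 genes the cultivated margin was the smaller one and in 43 the wild margin.

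More eligible genes were highest at cultivated late swelling than at wild maturity, so the pattern was a smaller share of the first than of the second. Of 7670 eligible genes highest at cultivated late swelling, the 864 genes made up 11.3%, and of 2062 highest at wild maturity they made up 41.9%. Of the genes highest at cultivated late swelling, 3740 were highest at middle in wild corms, 1659 at initial and 1199 at late. After median-of-ratios scaling, 1576 genes had the pattern in place of 864, and 137 of the 150 genes kept both peaks. The other 13 were then highest at cultivated maturity, while all 150 stayed highest at wild maturity. Applied to scaled values, the same selection shared 65 of its 150 genes with the set described here.

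The choice of genes fixed the peak stages but not the order of the other stages, so those were tested with limma on all 27050 genes. It left out genes highest at one of those other stages, which are still among all genes tested. A difference between the set and all genes is thus not wholly free of the choice. Genes named for a comparison had a mean of at least 10 TPM on its higher side and libraries that did not overlap. In cultivated corms most of the 150 genes had begun to rise by middle swelling. From initial to middle, 99 genes rose and 28 fell, which is 66.0% and 18.7% of the set, against 24.1% and 59.9% of all genes tested. The median change was 0.71 (log2), against -0.47 over all genes tested. A change of at least 2-fold was found in 58 genes that rose (38.7%, against 9.04% of all genes tested) and 4 that fell (2.67%, against 30.9%). After median-of-ratios scaling, 111 genes rose and 9 fell, 74% and 6% of the set, against 36.3% and 44.8% of all genes tested.

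EdulChr52G00189490 and EdulChr89G00288660 had the largest rises. EdulChr52G00189490 had 70.2, 68.8 and 65 TPM at middle and 0.3, 0.19 and 0.54 TPM at initial swelling, on the log2 scale a change of 5.69 ± 0.13 (SE, limma adjusted p = 1.47e-19). EdulChr89G00288660 had 55.8, 52.2 and 50.1 TPM at middle and 0.26, 0.26 and 0.17 TPM at initial swelling, a change of 5.45 ± 0.13 (SE, limma adjusted p = 7.29e-19). Neither gene overlapped between the stages, and both were higher still at late swelling, with means of 144 ± 7.21 and 178 ± 13.9 TPM (SD, n = 3 each).

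EdulChr43G00160710 and EdulChr93G00297650 dipped before their late peak. EdulChr43G00160710 had 19.9, 26.4 and 33.7 TPM at middle and 101, 108 and 93.1 TPM at initial swelling, on the log2 scale a change of -1.91 ± 0.17 (SE, limma adjusted p = 1.09e-09), and reached 181, 177 and 186 TPM at late. EdulChr93G00297650 had 60.4, 62.8 and 62.4 TPM at middle and 138, 132 and 118 TPM at initial, a change of -1.05 ± 0.12 (SE, limma adjusted p = 6.50e-08), and 228, 243 and 231 TPM at late. In both genes every middle library lay under every initial and late library.

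On the far side of the cultivated peak, genes of the set lay on both sides of their middle level. At maturity against middle, 54 genes were higher and 34 lower, 36.0% and 22.7% of the set, against 17.8% and 36.1% of all genes tested. The median change was 0.05 (log2), against -0.07 over all genes tested, and 62 genes did not pass the test, which does not show that they had returned to the same level. These counts moved with the scaling. After the 10 highest genes of the table were removed, 84 were higher and 18 lower (56% and 12%, against 30.6% and 23.4% of all genes tested), and after median-of-ratios scaling 75 were higher and 19 lower (50% and 12.7%, against 27.1% and 27.8%). Changes of at least 2-fold were few, with 13 genes higher (8.67%, against 1.58% of all genes tested) and 8 lower (5.33%, against 5.62%). The 13 became 20 without the 10 highest genes (13.3%, against 3.23% of all genes tested).

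EdulChr95G00301680 had the largest difference between maturity and middle swelling, with 44.4, 51.7 and 44.2 TPM at maturity and 4.2, 5.97 and 5.99 TPM at middle, on the log2 scale a change of 2.91 ± 0.14 (SE, limma adjusted p = 3.51e-13), beside 150.6, 145 and 141 TPM at late. EdulChr2G00005100 followed, with 16.2, 15.2 and 18.3 TPM at maturity and 2.88, 3.46 and 2.29 TPM at middle (log2 difference 2.19 ± 0.09 SE, limma adjusted p = 1.34e-14). At the other end, EdulChr3G00012970 had 4.69, 5.6 and 2.36 TPM at maturity and 12.2, 15.1 and 17.6 TPM at middle, a change of -1.66 ± 0.33 (SE, limma adjusted p = 1.89e-04). EdulChr101G00314080 had 14.6, 15.3 and 15.5 TPM at maturity and 42.6, 41.6 and 42 TPM at middle (log2 difference -1.42 ± 0.07 SE, limma adjusted p = 2.55e-13). None of these 4 genes overlapped between the stages.

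In deposited TPM the stage next below the cultivated peak was maturity in 72 genes, middle in 48 and initial in 30. These are 48.0%, 32.0% and 20.0% of the set, against 35.2%, 34.4% and 30.4% of the 864 genes of the pattern. The order of stages was not taken after scaling. By group means the most frequent order was initial, middle, maturity, late, from low to high, in 59 genes (39.3%, against 29.2% of the 864 genes of the pattern). In wild corms the stage next below the peak was late in 75 genes, middle in 52 and initial in 23. A steady climb from initial through middle and late to maturity was found in 46 genes (30.7%, against 24.7% of the 864).

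At wild middle against initial swelling, 94 of the 150 genes passed the test, 62.7% of the set against 65.6% of all genes tested. Of these, 65 genes were higher and 29 lower, 43.3% and 19.3% of the set, against 38.2% and 27.4% of all genes tested, so the share that was higher lay near the background. The median change was 0.16 (log2), against 0.08 over all genes tested, and 56 genes did not pass the test. Changes of at least 2-fold numbered 19 higher and 8 lower, 12.7% and 5.33% of the set, against 4.36% and 5.81% of all genes tested. With a pseudocount of 0.1 they numbered 30 and 13, for which no share of all genes was taken.

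EdulChr58G00203680 had the largest of these rises, with 72.2, 48.4 and 53.3 TPM at middle and 4.44, 4.4 and 4.92 TPM at initial, on the log2 scale a change of 3.38 ± 0.11 (SE, limma adjusted p = 7.30e-16). EdulChr27G00110170 had 25.7, 25.1 and 16.7 TPM at middle and 1.19, 3.04 and 8.14 TPM at initial (log2 difference 2.42 ± 0.33 SE, limma adjusted p = 2.29e-06), with a wide spread among its initial libraries. EdulChr13G00054870 fell the most, with 0.75, 0.8 and 0.46 TPM at middle and 24.6, 24 and 22.8 TPM at initial, a change of -3.90 ± 0.07 (SE, limma adjusted p = 8.78e-20). It returned at maturity, at 68.8, 64.8 and 67.4 TPM, after late values of 0.48, 0.73 and 0.73 TPM. EdulChr44G00165270 had 3.19, 3.54 and 3.48 TPM at middle and 10.6, 10.9 and 13.1 TPM at initial (log2 difference -1.50 ± 0.12 SE, limma adjusted p = 1.02e-09).

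At wild late swelling against middle, 108 genes passed the test, against 85.3% of all genes tested: 61 genes were higher and 47 lower, 40.7% and 31.3% of the set, against 19.2% and 66.1% of all genes tested. The median change was 0.07 (log2), against -0.53 over all genes tested. Median-of-ratios scaling moved these to 96 higher and 16 lower (64% and 10.7%, against 38.1% and 39.8% of all genes tested), with a median of 0.51 against -0.02, so the balance between rising and falling genes depended on the scaling. As deposited, 24 genes were higher by at least 2-fold and 8 lower (16.0% and 5.33% of the set, against 7.85% and 26.8% of all genes tested).

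EdulChr43G00160710 had 8.82, 12.5 and 12.6 TPM at wild late and 0, 0.21 and 0.66 TPM at wild middle swelling, on the log2 scale a change of 3.27 ± 0.17 (SE, limma adjusted p = 2.11e-13), ahead of 297, 306 and 291 TPM at maturity. EdulChr70G00237800 had 19.8, 19.4 and 16.8 TPM at late and 1.82, 2.6 and 2.05 TPM at middle (log2 difference 2.64 ± 0.07 SE, limma adjusted p = 1.34e-17). Lower at late were EdulChr50G00184910, with 4.47, 3.73 and 3.15 TPM at late and 13, 14.5 and 14.6 TPM at middle (log2 difference -1.66 ± 0.11 SE, limma adjusted p = 7.32e-12), and EdulChr102G00315960, with 18, 13.6 and 7.01 TPM at late and 40.9, 41.1 and 38.7 TPM at middle (log2 difference -1.66 ± 0.27 SE, limma adjusted p = 8.73e-06). At maturity EdulChr50G00184910 had 69, 67.4 and 56.3 TPM and EdulChr102G00315960 58, 57.6 and 51.8 TPM, above every earlier wild library of each gene.

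The change from initial to middle swelling differed between the origins for 119 of the 150 genes (limma interaction, cultivated minus wild), 79.3% of the set against 81.1% of all genes tested. The direction was the less common one: the cultivated change was the higher one in 87 genes and the lower one in 32, 58.0% and 21.3%, against 22.6% and 58.4% of all genes tested. The difference was at least 2-fold in 51 genes with the higher cultivated change (34.0%, against 9.42% of all genes tested) and 14 with the lower one (9.33%, against 32.7%). The median difference was 0.60 (log2), against -0.53 over all genes tested, and 1.02 against -0.07 after scaling. With scaling the counts were 107 and 19, 71.3% and 12.7% of the set, against 36.6% and 40.7% of all genes tested. Genes highest at initial or middle swelling in either origin were left out by the choice, so this direction is not wholly free of it.

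The next comparison set the peak of one origin against the peak of the other. The choice of genes used both peaks, but each only within its own origin. It did not fix the sign of their difference, yet a comparison with all genes is not wholly free of it. As deposited, 104 genes were higher at cultivated late swelling than at wild maturity and 32 were lower, 69.3% and 21.3% of the set, against 60.2% and 21.0% of all genes tested. Both shares lay near the background. The median difference, cultivated late minus wild maturity, was 0.91 (log2), against 0.63 over all genes tested. With median-of-ratios scaling the balance turned over, to 55 higher and 72 lower (36.7% and 48%, against 36.6% and 44.3% of all genes tested), with a median of -0.23 against -0.08 over all genes tested. Without the 10 highest genes of the table, ranked by mean TPM over all libraries, the medians were 0.41 and 0.23. The direction of the set as a whole thus depended on the scaling. Differences of at least 2-fold numbered 70 higher and 13 lower as deposited (46.7% and 8.67%, against 39.6% and 9.30% of all genes tested). After scaling they numbered 29 and 46 (19.3% and 30.7%, against 18.5% and 23.5% of all genes tested).

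**Figure D4:**
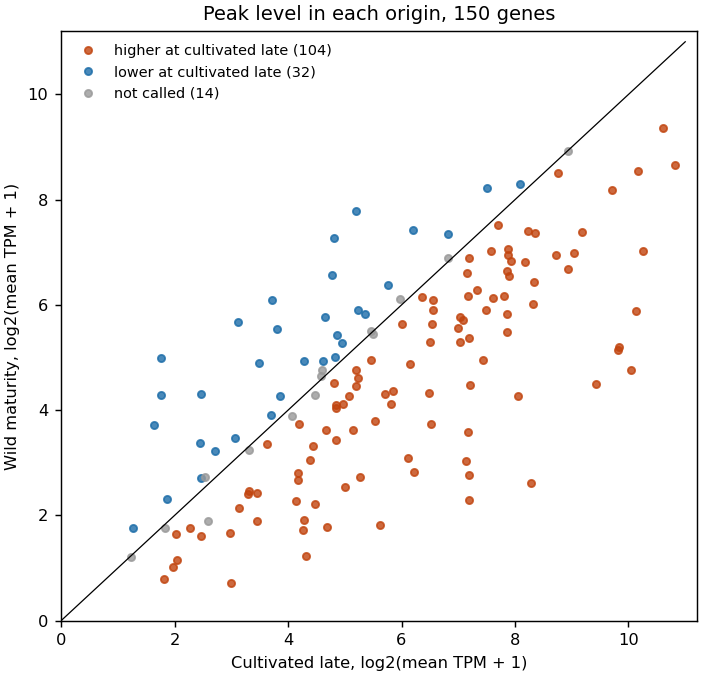
Mean level of each of the 150 genes at cultivated late swelling (x axis) and at wild maturity (y axis), both as log2(mean TPM + 1) of the deposited values; the line marks equal levels and colours mark limma calls at an adjusted p under 0.05. Most points, 104 of 150, are called higher at cultivated late swelling and 32 lower, a balance that turned over after median-of-ratios scaling (55 and 72).

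Single genes differed between the peaks by more than this shift. The 10 genes named next kept their direction under each alternative that was run. EdulChr81G00266040 had 308 ± 2.53 TPM at cultivated late swelling and 5.13 ± 0.41 TPM at wild maturity (SD, n = 3 each), on the log2 scale a difference of 5.66 ± 0.08 (SE, limma adjusted p = 2.74e-23). The difference was 5.28 ± 0.03 (SE, limma adjusted p = 9.85e-28) for EdulChr104G00320870 and 4.93 ± 0.08 (SE, limma adjusted p = 7.12e-22) for EdulChr28G00112290, whose libraries are given above. EdulChr95G00301680 had 150.6, 145 and 141 TPM at cultivated late swelling and 4.01, 3.73 and 3.95 TPM at wild maturity (log2 difference 4.90 ± 0.14 SE, limma adjusted p = 3.70e-18). EdulChr104G00320180 had 999, 871 and 820.4 TPM at cultivated late swelling and 38.6, 30.1 and 33.8 TPM at wild maturity (log2 difference 4.68 ± 0.14 SE, limma adjusted p = 5.01e-18). In each of these 5 genes the lowest late cultivated library lay above the highest mature wild library.

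In deposited TPM the largest differences in the other direction were smaller in size. After scaling this did not hold for every gene, as EdulChr59G00206410 differed by -4.36 and EdulChr28G00112290 by 3.69 (log2). The difference of EdulChr81G00266040 stayed larger in size than that of EdulChr59G00206410. Its scaled means were 237 at cultivated late swelling and 9.50 at wild maturity. EdulChr59G00206410 had 2.46, 1.58 and 3.08 TPM at cultivated late swelling and 25.7, 27.3 and 39.3 TPM at wild maturity, on the log2 scale a difference of -3.24 ± 0.18 (SE, limma adjusted p = 5.79e-13). EdulChr2G00005100 had 36.8, 36.3 and 34.7 TPM at cultivated late swelling and 213, 218 and 223 TPM at wild maturity (log2 difference -2.57 ± 0.09 SE, limma adjusted p = 5.16e-17). EdulChr27G00109380 had 7.24, 8.22 and 7.45 TPM at cultivated late swelling and 47.4, 50.8 and 51.8 TPM at wild maturity (log2 difference -2.56 ± 0.07 SE, limma adjusted p = 3.56e-18). EdulChr71G00240380 had 2.71, 2.22 and 2.2 TPM at cultivated late swelling and 18.1, 19.4 and 18.4 TPM at wild maturity (log2 difference -2.54 ± 0.12 SE, limma adjusted p = 1.22e-14), and EdulChr47G00174000 had 25.3, 28.1 and 27.3 TPM at cultivated late swelling and 159, 150.8 and 151.8 TPM at wild maturity (log2 difference -2.47 ± 0.07 SE, limma adjusted p = 3.95e-18). All 3 libraries of each side stood apart in these 5 genes.

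Before the peaks, most of these genes were at a higher level in cultivated than in wild corms. At the initial stage 132 of the 150 genes passed the test, against 86.3% of all genes tested. Of these, 94 were higher and 38 lower in cultivated corms, 62.7% and 25.3% of the set, against 46.8% and 39.4% of all genes tested, with a median log2 difference of 0.84 against 0.12. After median-of-ratios scaling 87 were higher and 42 lower, 58% and 28% of the set, against 39.7% and 45.3% of all genes tested. The scaled medians were 0.60 and -0.07. In deposited TPM the counts by size were as follows. At least 2-fold differences were found in 66 genes that were higher (44.0%, against 21.1%) and 19 that were lower (12.7%, against 20.2%). A large margin favours genes that are low at the other stages of an origin, so these levels are not wholly free of the choice of genes.

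EdulChr93G00297650 had 138, 132 and 118 TPM in cultivated and 0.65, 0.07 and 0.39 TPM in wild initial corms, on the log2 scale a difference of 6.59 ± 0.12 (SE, limma adjusted p = 5.36e-21). EdulChr43G00160710 had 101, 108 and 93.1 TPM in cultivated and 0.22, 0 and 0 TPM in wild initial corms (log2 difference 6.57 ± 0.17 SE, limma adjusted p = 1.18e-18). The wild values of both genes were under 1 TPM, so that the sizes depend on the pseudocount of 1. Lower in cultivated initial corms were EdulChr13G00054870, with 0.8, 0.77 and 0.87 TPM against 24.6, 24 and 22.8 TPM in wild corms (log2 difference -3.77 ± 0.07 SE, limma adjusted p = 1.04e-20), and EdulChr2G00005100, with 5.78, 5.77 and 4.61 TPM against 59.8, 58.3 and 59 TPM in wild corms (log2 difference -3.24 ± 0.09 SE, limma adjusted p = 2.22e-18).

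At middle swelling the set ran against the direction of most genes. The choice left out genes highest at middle swelling in either origin, so this comparison too is not wholly free of it. The test was passed by 127 of the 150, against 89.7% of all genes tested, and 108 were higher and 19 lower in cultivated corms, 72.0% and 12.7% of the set, against 31.7% and 58.0% of all genes tested. The median log2 difference was 1.52, against -0.53 over all genes tested, and 1.79 against -0.27 after scaling. At least 2-fold differences were found in 90 genes that were higher (60.0%, against 17.2%) and 6 that were lower (4.00%, against 37.9%). The count of 6 became 10 without the last cultivated middle library and 13 with a pseudocount of 0.1.

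EdulChr104G00320870 had 238, 237 and 252 TPM in cultivated and 0.03, 0.03 and 0 TPM in wild middle corms, on the log2 scale a difference of 7.90 ± 0.03 (SE, limma adjusted p = 1.54e-30) that depends on the pseudocount. EdulChr104G00320180 had 382, 400.2 and 470.2 TPM in cultivated and 4.8, 3.51 and 5.98 TPM in wild middle corms (log2 difference 6.20 ± 0.14 SE, limma adjusted p = 4.22e-20). EdulChr2G00005100 was lower in cultivated corms, with 2.88, 3.46 and 2.29 TPM against 72.2, 73.7 and 67.8 TPM in wild corms (log2 difference -4.23 ± 0.09 SE, limma adjusted p = 1.11e-20). EdulChr27G00109380 was lower as well, with 1.93, 1.77 and 1.62 TPM against 12.2, 12.3 and 12.1 TPM in wild corms (log2 difference -2.25 ± 0.07 SE, limma adjusted p = 3.16e-17). None of these genes overlapped between the origins at this stage.

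The stage just before each peak, cultivated middle and wild late, was compared as well. Genes highest at either of these stages were left out by the choice, which limits this comparison in the same way. In this shifted comparison 134 genes passed the test, against 86% of all genes tested, and 112 were higher and 22 lower in cultivated corms, 74.7% and 14.7% of the set, against 43.4% and 42.6% of all genes tested. The median difference was 1.23 (log2), against 0 over all genes tested, and 0.98 against -0.20 after scaling. At least 2-fold differences were found in 84 genes that were higher (56.0%, against 23.5%) and 8 that were lower (5.33%, against 24%). The largest differences were those of EdulChr104G00320870 (log2 difference 7.87 ± 0.03 SE, limma adjusted p = 8.26e-31) and EdulChr104G00320180 (log2 difference 6.91 ± 0.14 SE, limma adjusted p = 8.77e-21), beside low wild late libraries: 0.04, 0.04 and 0.04 TPM for EdulChr104G00320870 and 2.6, 2.41 and 2.38 TPM for EdulChr104G00320180. In the other direction EdulChr2G00005100 (log2 difference -4.002 ± 0.09 SE, limma adjusted p = 3.33e-20) and EdulChr27G00109380 (log2 difference -3.20 ± 0.07 SE, limma adjusted p = 1.00e-19) differed most. EdulChr2G00005100 had 59.3, 62.3 and 60.3 TPM in wild late corms and EdulChr27G00109380 had 23.2, 25.5 and 24.6 TPM.

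**Figure D5:**
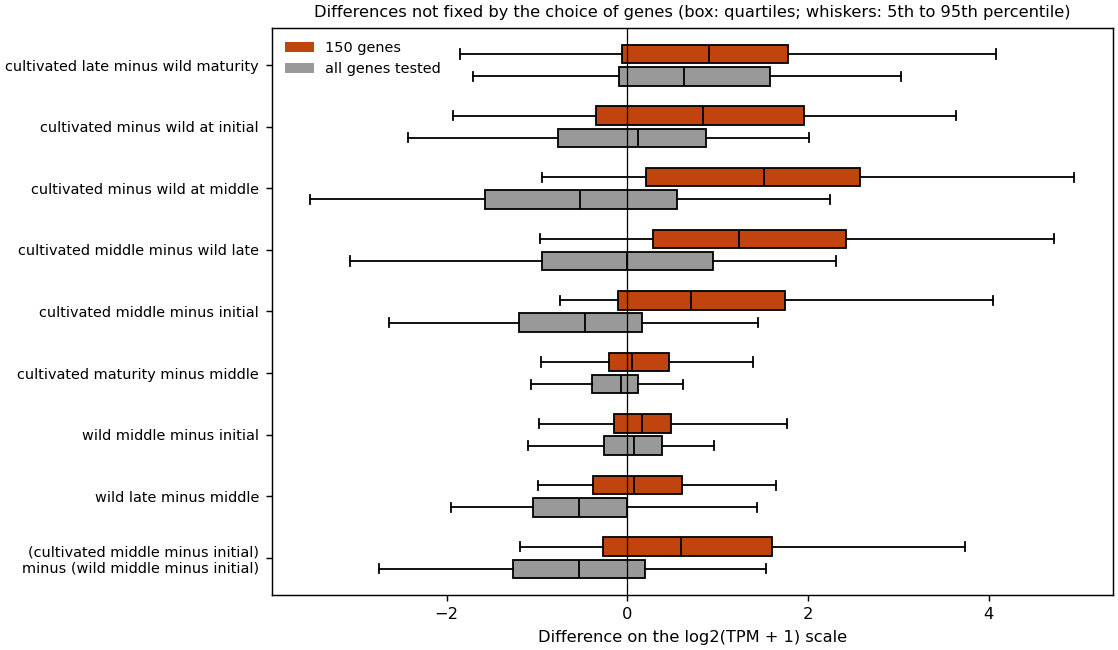
Differences on the log2(TPM + 1) scale (x axis) in the 9 tested comparisons (y axis) for the 150 genes and for all 27050 genes tested; boxes show quartiles and medians, whiskers the range between low and high percentiles given in the title. The 150 genes lie to the right of all genes most clearly for cultivated minus wild at middle swelling (medians 1.52 and -0.53) and for cultivated middle minus wild late swelling (1.23 and 0). Stages below the peaks entered the choice of genes as well, so differences between them are not wholly free of it.

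At the late stage and at maturity the choice of genes itself tilts cultivated against wild, so only a description is given. By group means 144 of the 150 genes were higher in cultivated corms at late swelling, and 68 at maturity, in deposited TPM. A total of 61 genes had the higher mean in cultivated corms at all 4 stages. After median-of-ratios scaling these counts were 135 at late swelling, 42 at maturity and 37 at all 4 stages. EdulChr81G00266040 was one of them, with 108, 129.9 and 113 TPM in cultivated and 5.55, 5.11 and 4.73 TPM in wild mature corms. EdulChr8G00036840 had the opposite order at maturity, with 119.9, 148 and 124 TPM in cultivated and 359, 369.7 and 353 TPM in wild corms.

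The IDs of the 150 genes carried 81 of the 111 numbers that follow Chr in the table's IDs, and no number held more than 5 of them. Only 3 pairs were neighbours in the order of IDs: EdulChr14G00061350 and EdulChr14G00061360, EdulChr43G00160710 and EdulChr43G00160720, and EdulChr77G00256000 and EdulChr77G00256010. A neighbour among the 864 genes of the pattern was found for 16 of the 150 genes (10.7%), beside 9.61% of the 864 themselves. A total of 13 pairs lay within 10 places of each other. Profiles of neighbours were not always alike over the 8 group means on the log2(TPM + 1) scale. Pearson's r was 0.81 for the EdulChr14G00061350 pair and 0.59 for the EdulChr43G00160710 pair. It was -0.21 for the EdulChr77G00256000 pair, in which EdulChr77G00256010 owed its cultivated peak to a single library. All 150 genes were chosen to peak in the same groups, so r is not free of the choice. These values only describe 8 points that share libraries.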

How the data were processed

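RNA-seq levels of corms were deposited as 1 table of TPM values made by the authors, rounded to 2 decimals, with 24 columns of libraries. Per the submitters' processing notes, the tools were DESeq2, StringTie 2.1.6 and HISAT2 2.0.4, whose roles are not stated. For genome build and annotation, the sources used here give nothing. Each of the 24 columns matched 1 sample by origin, stage and number in its title. TPM carries no depth, so no counting interval could be given.

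The 150 genes, the gene lists and the tests were chosen with earlier results of these data known. Genes with at least 1 TPM in at least 3 libraries (27050) were tested on log2(TPM + 1) with limma 3.58.1 in R 4.3.3 (8 group means, 24 libraries, eBayes with trend, no replicate block). P-values were adjusted over all genes tested by the Benjamini-Hochberg method, and genes were called at an adjusted p under 0.05. Differences of 2-fold are differences of 1 or more in log2(TPM + 1), a scale on which low genes change by less than in TPM. P-values measure the spread between libraries, which may be partly technical. The test was tried on simulated data.

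Named genes were the 10 with the largest smaller margin, the 5 highest at each peak, the 5 largest differences each way between the peaks, the 2 largest each way in each other comparison (adjusted p under 0.05, at least 10 TPM on the higher side, no overlap of libraries), the 3 largest interactions, and those at ranks 149 to 152. Gene lists by function could not be used, since no table pairs the IDs with names. Alternatives were a pseudocount of 0.1, no filter, a mean of at least 5 TPM, median-of-ratios scaling, removal of the 10 highest genes, only the compared groups, a replicate block, and each library left out.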

Additional observations from a re-analysis of the deposited data

Results flagged for a closer look

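The change from initial to middle swelling differed between the origins in 119 genes by limma's interaction test (cultivated minus wild). That is 79.3% of the set, near the 81.1% of all genes tested. The cultivated change was the higher one in 87 genes and the lower one in 32, 58.0% and 21.3% of the set, against 22.6% and 58.4% of all genes tested. After median-of-ratios scaling it was higher in 107 and lower in 19, 71.3% and 12.7% of the set, against 36.6% and 40.7% of all genes tested. The choice of genes used these stages too, so the difference from all genes is not wholly free of it.

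EdulChr52G00189490 had the largest such difference, 6.02 ± 0.18 (SE, limma adjusted p = 3.75e-17), with 70.2, 68.8 and 65 TPM in cultivated middle corms and 0.3, 0.19 and 0.54 TPM in cultivated initial corms, against 1.37, 0.88 and 0.9 TPM in wild middle and 1.31, 1.76 and 1.65 TPM in wild initial corms. EdulChr89G00288660 differed by 5.42 ± 0.19 (SE, limma adjusted p = 5.11e-16) and had 0.59, 0.81 and 0.5 TPM in wild middle and 0.72, 0.31 and 0.82 TPM in wild initial corms. EdulChr70G00238770 differed by 5.17 ± 0.33 (SE, limma adjusted p = 8.56e-12), with 46.2, 38.8 and 46 TPM at cultivated middle and 2.21, 1.34 and 0.86 TPM at cultivated initial swelling, against 0.76, 1.37 and 1.51 TPM at wild middle and 3.15, 2.8 and 3.87 TPM at wild initial swelling. The test compares log2(TPM + 1) values, and several of these are near or under 1 TPM.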

How the results depend on the processing

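Counts of called genes stayed within 1.5 times of the values given in every comparison without the filter, with only the compared groups in the fit and with a replicate block. Sample numbers do not pair the libraries: same-numbered libraries of different groups had deviations that correlated by -0.0053 on average (over 0.1 in 3 of 84 pairs), 7 of 24 libraries correlated best with their own number, and the block gave 103 and 31 genes higher and lower at cultivated late swelling against wild maturity. Median-of-ratios scaling moved cultivated late minus wild maturity to 55 higher and 72 lower (29 and 46 by at least 2-fold), and cultivated middle minus initial to 9 lower (1 by at least 2-fold). It gave 19 lower for cultivated maturity minus middle, and 96 higher and 16 lower for wild late minus middle (47 and 3 by at least 2-fold). For the interaction it gave 19 lower (5 by at least 2-fold). Without the 10 highest genes of the table, the 2-fold counts at the peaks were 44 and 22 (29.3% and 14.7%, against 29.5% and 15% of all genes tested). Cultivated middle minus initial then had 2 lower by at least 2-fold (1.33%, against 28.8%), and cultivated maturity minus middle had 84 higher, 18 lower and 20 higher by at least 2-fold. A mean of at least 5 TPM, met by 122 of the 150 genes, left 18 lower for cultivated middle minus initial and 9 lower by at least 2-fold for the interaction. A pseudocount of 0.1 moved only 2-fold counts: 13 lower for cultivated minus wild at middle, 8 lower for cultivated middle minus initial, 30 higher and 13 lower for wild middle minus initial, and 17 lower for wild late minus middle. These counts are given for their movement only, and nothing about the set is read from them. The cause of these shifts was not tested.

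The pattern itself was held by 1576 genes after scaling and by 1474 without the 10 highest genes, and the same selection then shared 65 and 89 of its 150 genes with the set, against 123 with a pseudocount of 0.1. The smaller margin of EdulChr4G00018170, just outside the set, became -0.0519 after scaling. With each library left out in turn, one count changed by more than 1.5 times, the genes lower by at least 2-fold in cultivated minus wild at middle (5 to 10, the highest without cultivated middle replicate 3). Tested differences of named genes kept direction and call under each alternative that tested them. The smaller margins of named genes, which have no test, moved by more than the replicate spread in 18 of 19 genes after scaling. The margin left, that of EdulChr4G00018170, changed sign. Without the 10 highest genes, 17 margins moved by more than that spread. TPM gives no depth, so precision rests on 3 libraries per group.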
